A study of Caenorhabditis elegans with 2 samples.

Results

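Of the 870 nuclear peaks in the optimal SKN-1 peak list, 396 (45.5%, exact 95% interval 42.2 to 48.9) had their summit in the promoter of exactly 1 protein-coding gene. Promoters were taken to begin 1000 bp before an annotated 5' end and to end 200 bp after it (Ensembl release 115, WBcel235). These single-gene promoter peaks were chosen by position alone, from the ce11 list of 872 peaks, of which 2 were mitochondrial. Another 192 nuclear summits lay in promoters of 2 or more genes, called shared promoters here, and 282 lay in no protein-coding promoter. The peaks came from ChIP-seq of whole C. elegans L2 larvae of mixed sex, strain OP178, in 2 biological replicates with no second condition. The strain's genotype is unc-119(ed3) III; wgIs178, and the inserted transgene makes SKN-1 with GFP-FLAG at its C terminus. The labels do not say which promoter drives the transgene, nor its copy number, and the peaks do not tell the tissue. The antibody label names skn-1, while the free-text description of both samples names PHA-4, a forkhead factor.

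SKN-1 is the C. elegans relative of the mammalian NRF factors. It binds DNA as a monomer, through a basic region like that of bZIP proteins and an arm that reads bases in the minor groove. It is known for inducing glutathione and other detoxification enzymes under oxidative stress and proteasome subunits when the proteasome is impaired, in the intestine above all. When stress is low, WDR-23 with a CUL-4 ubiquitin ligase keeps SKN-1 in the nucleus at a low level. Where only 1 gene has its promoter at a summit, the rule assigns the peak to 1 gene. Position alone does not show which gene a peak acts on. For 100 of the 396 peaks (25.3%), the 5' end of another protein-coding gene lay 1500 bp or less from the summit.

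The SKN-1 word looked for in the sequences was any of AATATCAT, AATGTCAT, ATTATCAT, ATTGTCAT, TATATCAT, TATGTCAT, TTTATCAT or TTTGTCAT, on either strand. The windows printed first are examples, from an aquaporin gene (aqp-11) and genes of protein extraction, glutathione use and sulfur or redox chemistry that carry it within 40 bp of the summit. Each runs 5' to 3' on the strand of its gene in WBcel235 (ce11), has the summit at its centre, and shows the word in capitals.
cdc-48.1, chrII:10563515-10563595, minus strand: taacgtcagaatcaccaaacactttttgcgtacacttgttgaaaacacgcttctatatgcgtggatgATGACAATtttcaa
C02D5.4, chrIII:8552285-8552365, plus strand: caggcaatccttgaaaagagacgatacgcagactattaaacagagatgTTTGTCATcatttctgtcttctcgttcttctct
msra-1, chrII:7364263-7364343, minus strand: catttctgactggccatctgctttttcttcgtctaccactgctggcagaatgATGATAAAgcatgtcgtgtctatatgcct
aqp-11, chrIII:13672841-13672921, plus strand: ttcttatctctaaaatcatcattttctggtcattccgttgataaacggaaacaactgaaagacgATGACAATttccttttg
gst-1, chrIII:9059095-9059175, plus strand: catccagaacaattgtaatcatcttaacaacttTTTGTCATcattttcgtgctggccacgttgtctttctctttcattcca
gst-7, chrII:4881936-4882016, plus strand: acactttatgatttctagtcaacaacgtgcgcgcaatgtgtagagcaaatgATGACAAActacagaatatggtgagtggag
gcs-1, chrII:9038902-9038982, minus strand: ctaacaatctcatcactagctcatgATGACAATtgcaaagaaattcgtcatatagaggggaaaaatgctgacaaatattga
cysl-2, chrII:14494656-14494736, minus strand: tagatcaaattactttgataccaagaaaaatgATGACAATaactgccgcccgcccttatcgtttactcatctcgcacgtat
cdc-48.2, chrII:8138179-8138259, plus strand: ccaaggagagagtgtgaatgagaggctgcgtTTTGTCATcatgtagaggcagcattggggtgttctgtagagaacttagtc
gst-5, chrII:10950239-10950319, plus strand: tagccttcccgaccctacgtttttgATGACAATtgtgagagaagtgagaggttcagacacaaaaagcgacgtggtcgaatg

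In 7 of these 10 windows the word read against the gene, so that the capitals show its complement. TTTGTCAT or ATTGTCAT, on one strand or the other, made up 9 of the 10 words, and msra-1 had TTTATCAT. In 8 of the 10, the exceptions being aqp-11 and gst-5, the word was followed on its own strand by CAT.

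The next windows are shown because they belong to strong or well-known members and hold no such word: a pair of large ribosomal subunit genes, and skn-1 itself.
rpl-35, chrIII:7854643-7854723, plus strand: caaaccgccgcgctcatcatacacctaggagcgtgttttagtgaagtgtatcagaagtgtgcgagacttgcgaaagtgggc
rpl-3, chrIII:3867555-3867635, plus strand: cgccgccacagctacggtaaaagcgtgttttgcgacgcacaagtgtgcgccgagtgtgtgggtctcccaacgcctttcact
skn-1, chrIV:5656096-5656176, minus strand: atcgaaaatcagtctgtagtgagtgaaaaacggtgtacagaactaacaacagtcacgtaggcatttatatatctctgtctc

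The strongest single-gene peaks lay at cdc-48.1 and wdr-23. The deposited signal is taken here to be the peak caller's enrichment, which no source used here states, and it serves to rank peaks within a list. It has no replicate error. The peak at cdc-48.1, the gene of an ATPase that pulls ubiquitinated proteins out of complexes and membranes, had a signal of 947 in the optimal list, 652 in the list of replicate 1 and 299.6 in that of replicate 2. The peak at wdr-23 had a signal of 651 in the optimal list, 479 in replicate 1 and 173 in replicate 2. These 2 were also the strongest of all nuclear optimal peaks, and they stood well above the next member. That was cbl-1, annotated by RefSeq as a cystathionine gamma-synthase, with a signal of 196 in the optimal list, 128 in replicate 1 and 72.0 in replicate 2.

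Signals of the other members among the 20 strongest ran from 193 down to 122. C02D5.4, which encodes an omega-class glutathione S-transferase, had 193 in the optimal list, 139 in replicate 1 and 50.3 in replicate 2. msra-1, whose product reduces oxidised methionine, had 186 in the optimal list, 140.0 in replicate 1 and 47.7 in replicate 2. The next were aqp-11, an aquaporin (182), rpt-3, an ATPase of the proteasome's regulatory particle (177), and rpl-35, a protein of the large ribosomal subunit (170). Then came gst-1 (157) and gst-13 (155), both glutathione S-transferases, rpl-3 (147), the core proteasome subunit gene pas-5 (146), C35B1.2 (142) and the glutaredoxin gene glrx-10 (139). The list closed with rpn-11, the deubiquitinase of the regulatory particle (137), K05C4.2 (135), the glutathione peroxidase gene gpx-1 (135), the cohesin loader gene scc-2 (129), ufbp-1 (125) and Y94H6A.10 (122). All 20 were among the 872 strongest peaks of each replicate. Of the 20, 12 had the SKN-1 word within 100 bp of the summit.

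**Figure D1:**
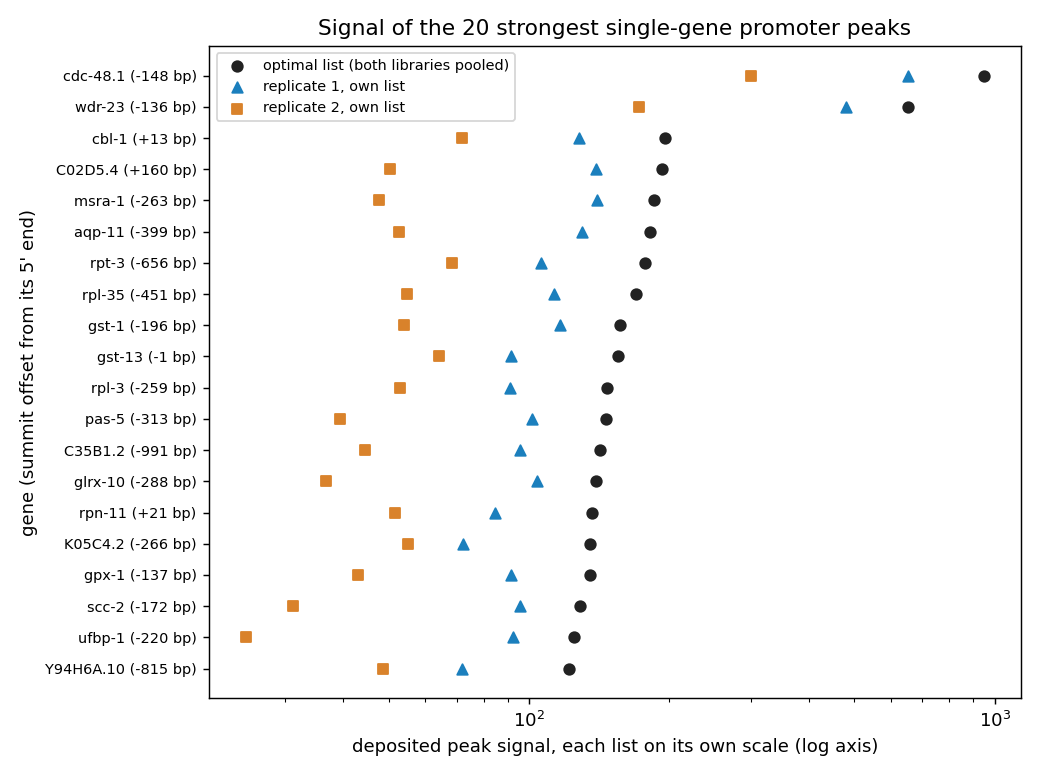
Deposited signal (log axis) of the 20 strongest single-gene promoter peaks in the optimal list and in each replicate's own list, each list on its own scale; the gene and the summit's offset from its 5' end are on the vertical axis. cdc-48.1 and wdr-23 stand apart at 947 and 651, and the other 18 lie between 122 and 196 in the optimal list.

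Below the 20 strongest, other known SKN-1 targets followed closely. The peak at gcs-1, whose enzyme makes the first step of glutathione synthesis, had a signal of 120 in the optimal list, 90.7 in replicate 1 and 30.4 in replicate 2. Its summit lay 641 bp upstream of the gene, within the noncoding gene F37B12.11. The skn-1 gene had a single-gene peak with a signal of 115 in the optimal list, 85.3 in replicate 1 and 30.3 in replicate 2. Its summit lay in an intron of the gene, 531 bp upstream of an internal 5' end, and reads from the native locus and from the transgene cannot be told apart. The gst-4 peak fell in a shared promoter, so gst-4 is not among these genes.

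Most members were far weaker than these. The median signal of the 396 peaks was 53.7, with a range from 43.2 to 947, against medians of 56.6 for the 192 shared-promoter peaks and 53.3 for the 282 peaks in no promoter. The share of members above the median of the nuclear list was 48.5%, against 55.2% of shared-promoter peaks. The difference gave an odds ratio of 0.764 (95% interval 0.532 to 1.10; two-sided Fisher's exact test, adjusted p = 0.271 over 4 tests). Against peaks in no promoter, with 48.6% above that median, it was 0.996 (95% interval 0.725 to 1.37; two-sided Fisher's exact test, adjusted p = 1). Neither difference passed the threshold of 0.05. With promoters cut to 500 bp upstream and 100 bp downstream, 46.4% of the single-gene peaks were above it, against 59.7% of shared-promoter peaks, and that difference passed (two-sided Fisher's exact test, odds ratio 0.584, adjusted p = 0.0422).

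Nearly all members overlapped a peak of each replicate's relaxed list, and fewer were among its strongest peaks. The optimal list was drawn from these same 2 replicates, so this overlap is no independent check. Of 396 members, 395 overlapped a relaxed peak of replicate 1 by at least 1 bp, 391 one of replicate 2, and 390 both. The relaxed lists hold 24771 and 28630 peaks, most of them background by design. Among the 872 strongest peaks of replicate 1 were 334 members (84.3%), among those of replicate 2 were 235 (59.3%), and 188 (47.5%) were in both. The members' median rank was 473 in replicate 1 and 647 in replicate 2. The share in both was 54.2% for shared-promoter peaks and 44.3% for peaks in no promoter. Against shared-promoter peaks the odds ratio was 0.765 (95% interval 0.533 to 1.10; two-sided Fisher's exact test, adjusted p = 0.271), and against peaks in no promoter it was 1.14 (95% interval 0.826 to 1.56; two-sided Fisher's exact test, adjusted p = 0.580). Over the 390 members found in both relaxed lists, log2 signals of the 2 replicates had a Pearson r of 0.484 and a Spearman rho of 0.242. These are given as a description across peaks, which share 2 libraries and were chosen on their pooled signal.

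Summits clustered just upstream of the annotated 5' end. The median offset was -222 bp, with quartiles at -393 and -118 bp and a range from -991 to 191 bp. In all, 372 summits (93.9%) lay upstream of the 5' end, 230 (58.1%) within 300 bp upstream, and 74 (18.7%) more than 500 bp upstream. The fullest stretch of 100 bp, from 200 to 101 bp upstream, held 90 summits, against 16 in the first 100 bp downstream. The 198 stronger members had a median offset of -244.5 bp and the 198 weaker ones -205.5 bp. For shared-promoter peaks the offset to the nearest of their genes had a median of -155.5 bp. The rule itself bounds these offsets and reaches 1000 bp upstream but only 200 bp downstream, which favours upstream summits. They are given with no test.

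**Figure D2:**
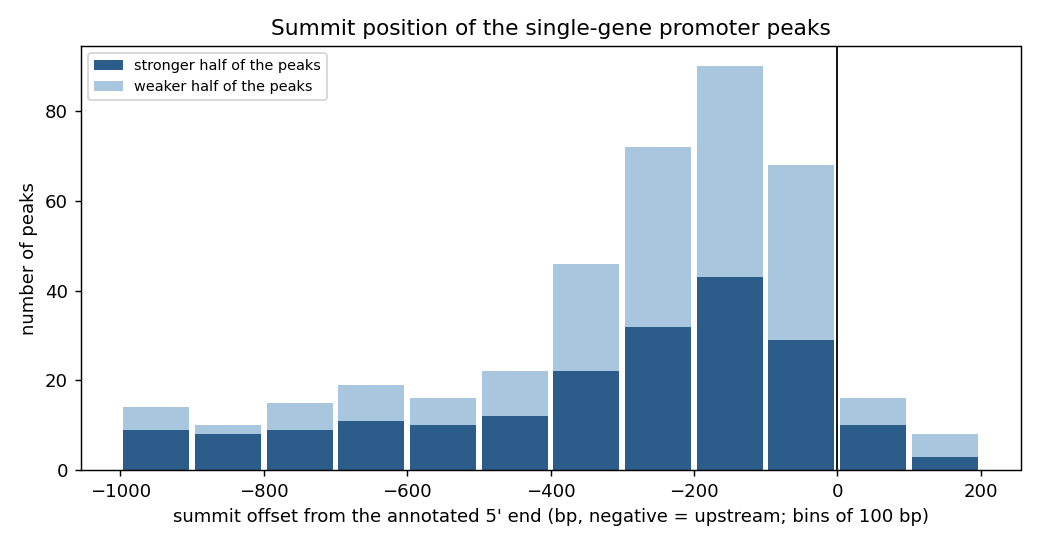
Number of single-gene promoter peaks by the summit's offset from the annotated 5' end (bp, negative upstream, bins of 100 bp), with the 198 stronger peaks in dark and the 198 weaker peaks stacked in light. The count is highest, at 90, from 200 to 101 bp upstream, and it is lower on both sides.

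Some of the strongest members lay away from this stretch. Summits were 148 bp upstream of cdc-48.1 and 136 bp upstream of wdr-23, but 656 bp upstream of rpt-3, inside the neighbouring gene chtb-2. At C02D5.4 the summit was 160 bp downstream of the 5' end, in an intron, and at rpn-11 it was 21 bp downstream, in an untranslated exon. At the edges of the window, C35B1.2 (-991 bp, signal 142), glo-3 (-984 bp, 57.2), Y62E10A.13 (191 bp, 56.2) and pam-1 (185 bp, 76.4) were just inside. Summits nearest to epg-9 (-1002 bp, signal 60.5), fbxb-58 (-1012 bp, 127), egl-17 (203 bp, 57.6) and pyk-1 (288 bp, 46.4) were just outside.

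Most member summits lay between genes. There were 286 (72.2%) between genes, 41 (10.4%) in an intron of the member gene, 28 (7.07%) in another protein-coding gene and 20 (5.05%) in an untranslated exon of the member gene. A further 18 lay in a noncoding gene or pseudogene and 3 in a coding exon of the member gene. The nearest 5' end was an internal one, of a shorter transcript, for 51 members (12.9%). The rule counts protein-coding genes only, and for 18 members the summit was also in the same window of a small RNA gene: a snoRNA for 8, a tRNA for 5, an snRNA for 4 and a miRNA for 1.

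The 396 peaks belonged to 392 genes, which is 1.96% of the 19973 nuclear protein-coding genes and 2.01% of the 19474 with promoter bases that no other gene shares. C32H11.4, D2045.8, ret-1 and lgg-2, an LC3 relative of autophagosomes, had 2 member peaks each. Of these 392 genes, 227 (57.9%) had a tandem upstream neighbour, against 50.9% of all protein-coding genes. A divergent neighbour stood upstream of 142 (36.2%), against 42.2% of all genes, and the median gap to it was 2897 bp for member genes and 1405 bp for all genes. The rule favours such spacing, since a close divergent gene makes a promoter shared. The X chromosome held 18.4% of member peaks and 13.7% of protein-coding genes, and chromosome V 18.4% of member peaks but 4994 of the 19973 genes. On the other 4 chromosomes the member peaks made up 13.9% to 17.4% of the total, against 13.2% to 17.3% of genes.

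The 19S and 20S proteasome lists had the highest shares of the gene lists. Counts in the lists are set beside the 1.96% of all protein-coding genes, with no test, and any promoter summit, single or shared, was present at 3.89% of all genes. Of 19 genes of the 19S regulatory particle, which unfolds and feeds substrates to the proteasome, 5 had a single-gene peak (26.3%): rpt-3 (signal 177), rpn-11 (137), rpt-1 (81.2), rpt-6 (79.3) and rpn-13 (72.8). Of 14 genes of the 20S core, which cuts them, 3 did (21.4%): pas-5 (146), pbs-3 (94.8) and pbs-4 (85.3). A further 12 genes of the regulatory particle and 9 of the core had a shared-promoter peak only, so most of the proteasome's peaks fall outside the single-gene set. In the list of CDC-48, its cofactors, ubiquitin shuttles and the enzymes that process SKN-1A, 3 of 20 genes had a peak: cdc-48.1 (947), its paralog cdc-48.2 (89.7) and ufd-3 (57.6), which encodes a CDC-48 cofactor. This list had 5 genes with replicate 1 left out.

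The glutathione S-transferases had the next highest share. Of 49 genes of the glutathione S-transferase family, whose enzymes join glutathione to electrophiles, 9 had a single-gene peak (18.4%) and 4 a shared one only. They were gst-1 (157), gst-13 (155), gst-7 (122), gst-5 (85.9), gst-16 (66.4), gst-8 (57.5), gst-6 (52.7), gst-20 (50.2) and gst-22 (44.7). Their summits lay from 1 to 200 bp upstream of the 5' end. Of 37 genes of glutathione synthesis and redox enzymes, 4 had a peak (10.8%): msra-1 (186), glrx-10 (139), gpx-1 (135) and gcs-1 (120). Families of other detoxification steps were nearer to the background: 3 of 67 UDP-glucuronosyltransferase genes (ugt-5, 74.3; ugt-48, 69.0; ugt-22, 64.4), 3 of 51 ABC transporter genes (wht-1, 62.0; haf-7, 59.6; mrp-5, 47.9), 2 of 74 cytochrome P450 genes (cyp-43A1, 47.1; cyp-33B1, 46.5) and 1 of 31 dhs genes (dhs-9, 86.0). The cytochrome P450 count was 1 with replicate 1 left out.

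Regulators of SKN-1 and transcription factors of its class also had peaks. In the list of SKN-1 regulators and the p38 pathway 4 of 24 genes did (16.7%): wdr-23 (651), the kinase genes akt-2 (60.3) and sgk-1 (44.2), which act in insulin signalling, and ogt-1 (45.3), which encodes an O-GlcNAc transferase. The count was 2 with replicate 1 left out and 2 with the shorter promoter. Among 29 bZIP factor genes 5 did (17.2%), led by skn-1 (115), xbp-1 (87.8), a factor of the unfolded protein response, and cebp-1 (72.2). It was 2 with the shorter promoter and 2 with 1 5' end per gene. Of 274 nuclear hormone receptor genes 9 did (3.28%), led by nhr-182 (88.0), nhr-104 (74.1) and nhr-228 (73.5).

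Other lists of protein folding, quality control and the ribosome had shares from 6.45% to 17.6%, apart from the CCT chaperonin and prefoldin (0 of 14). In the list for folding in the endoplasmic reticulum 3 of 17 genes had a peak: xbp-1, which the bZIP list holds too, crt-1 (60.1), which encodes calreticulin, and manf-1 (45.5). For the mitochondrial stress response it was 2 of 14 (tomm-20, 53.6; ubl-5, 45.0), and for cytosolic heat shock chaperones 5 of 49, led by dnj-9 (58.6), hsp-1 (51.9) and hsp-70 (50.8). With replicate 1 left out the chaperone count was 2 and the mitochondrial count 1, and with replicate 2 left out the chaperone count was 3. For autophagy it was 3 of 35: epg-7 (73.9), bec-1 (65.2) and lgg-2 (55.3). Large ribosomal subunit genes numbered 6 of 52, led by rpl-35 (170), rpl-3 (147) and rpl-11.2 (82.3), and small subunit genes 2 of 31 (rps-11, 53.7; rps-4, 46.0). Small subunit genes numbered 1 with replicate 2 left out and 4 with the shorter promoter. A shared peak only was present at 11 genes of the large subunit and 10 of the small subunit.

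The remaining lists had shares of 5.38% or less. Of 93 genes of intestinal differentiation 5 had a peak (5.38%), led by spp-3 (96.5), cpr-3 (71.8) and lys-8 (58.5). Translation factors and tRNA synthetases had 2 of 74 (eif-3.C, 72.7; eif-3.B, 45.7), the vacuolar ATPase 1 of 20 (vha-9, 54.9), C-type lectins 4 of 240, led by clec-143 (74.1), clec-265 (63.5) and clec-72 (44.8), and histones 1 of 72 (his-37, 106). C-type lectins numbered 2 with either replicate left out, and translation genes 4 with the shorter promoter. No single-gene peak was found for 176 collagen genes, 29 genes of endoderm and mesoderm specification, 17 pharynx genes, or 14 genes of the CCT chaperonin and prefoldin, of which 4 had a shared peak only. In all, 21 of 27 lists had a share above 1.96%, some of them through 1 or 2 genes only. The lists can share genes and were chosen with earlier results of these data known, so this tally is a description.

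**Figure D3:**
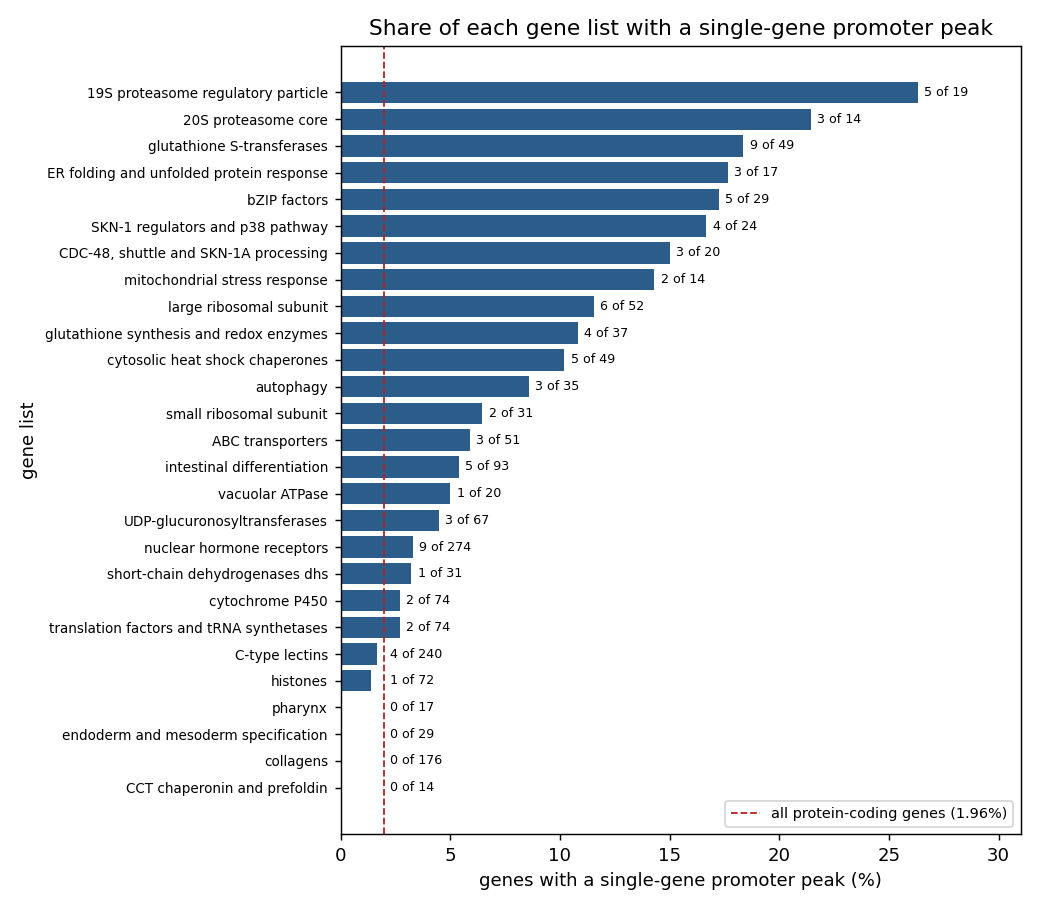
Share of the genes in each of 27 lists that had a single-gene promoter peak (%), with the count beside each bar; the dashed line is the share of all protein-coding genes, 1.96%. The 19S and 20S proteasome lists and the glutathione S-transferases have the longest bars, and 4 lists have no such gene.

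Other words were counted beside the SKN-1 word in the 201 bp around each summit, on both strands. Some of them are known as binding sites of other factors. The SKN-1 core was ATCAT or GTCAT, which lies inside every SKN-1 word. The GATA word was TGATAA, the forkhead word TGTTTAC or TGTTTGC, the bZIP word TGACTCA and the E-box CACGTG. GAGAGAGA and CTGCGTC were the other words, with no factor named for them here. The words were chosen with earlier results of these data known, so their shares and tests are no independent check. ATTATCAT and TTTATCAT contain the GATA word on the opposite strand, so these counts overlap. A match describes the letters of a window and does not show binding.

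The SKN-1 word was present at 109 of 396 members (27.5%), against 12.02% of flank windows 500 bp to each side and 11.4% of windows of the same length at all protein-coding promoters. The GATA word was present at 40.2% of members, against 18.7% of flanks and 20.7% of all promoters. The SKN-1 core was present at 70.5% of members, 54.1% of flanks and 55.3% of all promoters. The forkhead word was found at 13.9% of members, 5.50% of flanks and 8.14% of all promoters. CTGCGTC was found at 14.9% of members, 1.28% of flanks and 2.98% of all promoters. The bZIP word was seen at 4.80% of members, 2.17% of flanks and 2.53% of all promoters. For the E-box it was 6.06% of members, 4.48% of flanks and 3.21% of all promoters. For GAGAGAGA it was 7.07% of members, 0.895% of flanks and 2.12% of all promoters. None of the 8 words was found at 59 of 396 members, and none of the 7 words other than the core at 111. Flanks and all promoters were not counted in this way, so these counts have no background. The mean GC content of the windows was 38.9% ± 6.56 for members, 36.0% ± 7.08 for flanks and 34.3% ± 6.53 for all promoters (SD over 396, 782 and 19973 windows), and its part in these differences was not tested.

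**Figure D4:**
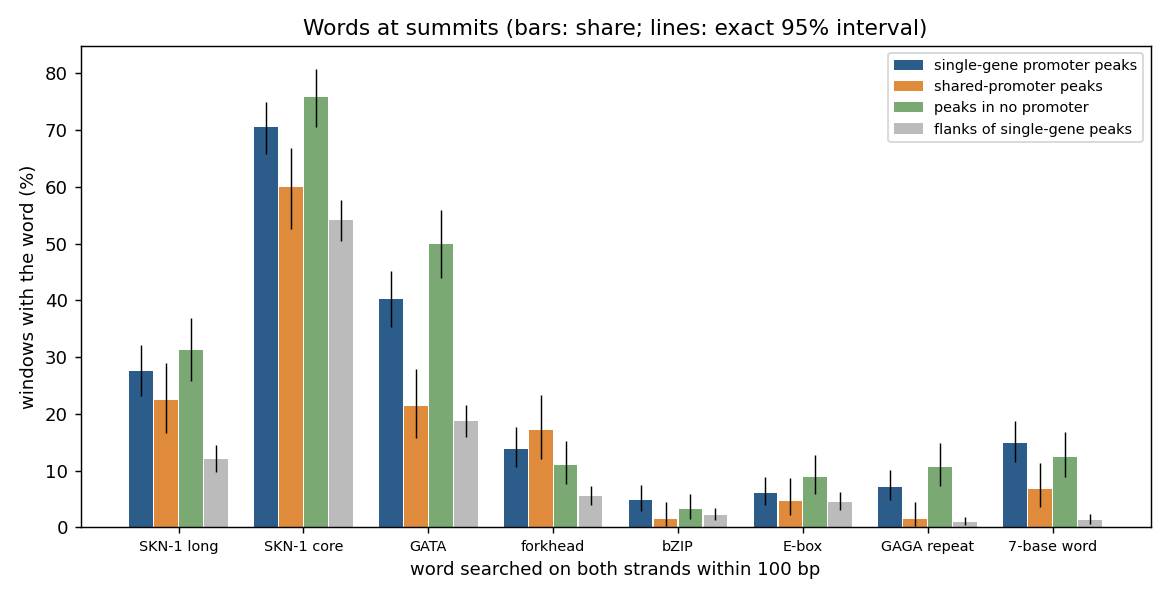
Share of windows of 201 bp (%) that hold each word, for single-gene promoter peaks, shared-promoter peaks, peaks in no promoter and the flanks of the single-gene peaks; bars are shares and error bars exact 95% intervals, and the 7-base word is CTGCGTC. The GATA word is present at 40.2% of single-gene peaks, against 21.4% of shared-promoter peaks and 50% of peaks in no promoter.

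The difference from shared-promoter peaks was firmest for GATA. It was present at 159 of 396 single-gene peaks (40.2%) and 41 of 192 shared-promoter peaks (21.4%), an odds ratio of 2.47 with a 95% interval from 1.63 to 3.78 (two-sided Fisher's exact test, adjusted p = 6e-05 over 24 word tests). The difference passed under all 6 alternative settings tried. Leaving out GATA words that overlap a SKN-1 word, the shares were 36.4% of single-gene peaks and 19.8% of shared-promoter peaks. GATA factors such as ELT-2 are known regulators of intestinal genes. Their binding was not measured here.

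The core and both words without a named factor also passed the same test against shared-promoter peaks, less stably. The SKN-1 core was present at 70.5% of single-gene peaks and 59.9% of shared-promoter peaks (odds ratio 1.60; two-sided Fisher's exact test, adjusted p = 0.0415). Of single-gene peaks 14.9% held CTGCGTC, and of shared-promoter peaks 6.77% (odds ratio 2.41; two-sided Fisher's exact test, adjusted p = 0.0296). Each of them passed under 4 of 6 alternatives. GAGAGAGA was present at 7.07% of single-gene peaks and 1.56% of shared-promoter peaks (odds ratio 4.78; two-sided Fisher's exact test, adjusted p = 0.0296) and passed under 0 of 6. The SKN-1 word itself did not pass, with 27.5% of single-gene peaks and 22.4% of shared-promoter peaks (odds ratio 1.32, 95% interval 0.864 to 2.02; two-sided Fisher's exact test, adjusted p = 0.386). Nor did the forkhead word, with 13.9% of single-gene peaks and 17.2% of shared-promoter peaks (odds ratio 0.777, 95% interval 0.475 to 1.29; two-sided Fisher's exact test, adjusted p = 0.439).

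Against the 282 peaks in no promoter GATA passed, in the other direction, and the other 7 words did not. It was present at 40.2% of single-gene peaks and 50% of peaks in no promoter (odds ratio 0.671, 95% interval 0.487 to 0.924; two-sided Fisher's exact test, adjusted p = 0.0415), and it passed under 0 of 6 alternatives. GAGAGAGA, at 7.07% of single-gene peaks and 10.6% of peaks in no promoter, did not pass (odds ratio 0.640; two-sided Fisher's exact test, adjusted p = 0.329). It passed in the same direction with the shorter promoter (odds ratio 0.386, adjusted p = 0.00587 by the same exact test) and with 1 5' end per gene (odds ratio 0.443, adjusted p = 0.0313 by the same exact test). The SKN-1 word was present at 27.5% of single-gene peaks and 31.2% of peaks in no promoter (odds ratio 0.837, 95% interval 0.591 to 1.19; two-sided Fisher's exact test, adjusted p = 0.439).

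Within the single-gene peaks, the SKN-1 word went with a stronger signal. It was present at 79 of the 198 stronger members (39.9%) and 30 of the 198 weaker ones (15.2%), an odds ratio of 3.71 with a 95% interval from 2.24 to 6.24 (two-sided Fisher's exact test, adjusted p = 1.08e-06). By blocks of 99 members from the strongest to the weakest, 50, 29, 15 and 15 had the word. The exact 95% interval of the weaker members' share, 10.5% to 20.9%, holds the 11.4% of all promoters. With the members taken from the 872 strongest peaks of replicate 1 alone, the odds ratio was 2.64 (two-sided Fisher's exact test, adjusted p = 0.000542). With those of replicate 2 alone it was 1.89 and missed the threshold (two-sided Fisher's exact test, adjusted p = 0.0502). The SKN-1 core was present at 76.8% of the stronger and 64.1% of the weaker members (odds ratio 1.84; two-sided Fisher's exact test, adjusted p = 0.0387), and this passed under 4 of 7 alternatives. For GATA the shares were 39.4% of the stronger and 40.9% of the weaker members (odds ratio 0.939, 95% interval 0.616 to 1.43; two-sided Fisher's exact test, adjusted p = 0.838).

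The nearest copy of the SKN-1 word had a median distance of 30.5 bp from the summit, and in 48 of 109 members it was within 25 bp. The search reached only 100 bp, which bounds these distances. Closeness was not particular to this word: medians were 25 bp for the SKN-1 core, 29 bp for forkhead, 31 bp for CTGCGTC, 33.5 bp for GATA and 50 bp for bZIP. Of the 134 SKN-1 words, 79 read along the gene and 55 against it, and 21 members had more than 1. TTTGTCAT was the commonest, with 34 words, then ATTGTCAT with 26, ATTATCAT with 20, TTTATCAT with 18, AATGTCAT with 16, AATATCAT with 12, TATGTCAT with 6 and TATATCAT with 2. The next 3 bases were CAT after 39 of the 134 words (29.1%, exact 95% interval 21.6 to 37.6), against 3.92% of words in the flanks and 4.67% of words at all promoters. This is the extension seen in the windows of cdc-48.1, gst-1 and gcs-1. Among the stronger members it followed 33 of 99 words, and among the weaker members 6 of 35. The interval given for CAT takes each word as independent, although 21 members had more than 1.

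**Figure D5:**
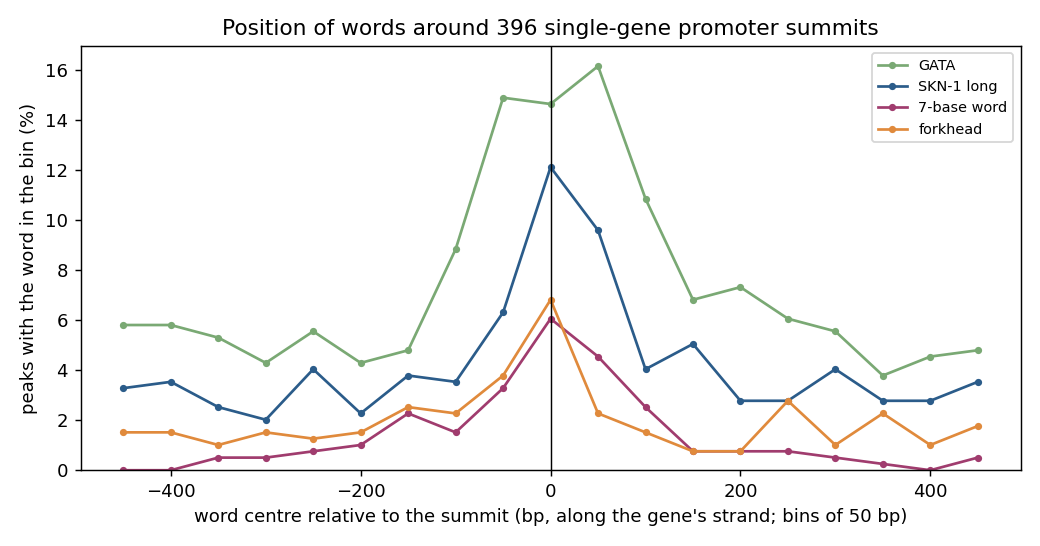
Share of the 396 single-gene promoter peaks with each word (%) in bins of 50 bp from 450 bp before to 450 bp after the summit along the gene's strand; the 7-base word is CTGCGTC. The SKN-1 word peaks at 12.1% in the bin at the summit, and GATA is high over the bins around it.

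Offset and word content varied together only in part. The SKN-1 word was present at 24.3% of members with a summit more than 500 bp upstream, 20.4% of those from 500 to 251 bp, 26.0% of those from 250 to 101 bp, and 40.2% of those from 100 bp upstream to 200 bp downstream. These shares are a description over 74, 103, 127 and 92 members. SKN-1 and GATA words were found together at 65 of 396 members, with the SKN-1 word at 109 and the GATA word at 159. Part of this is built in, since ATTATCAT and TTTATCAT contain the GATA word. With GATA words that overlap a SKN-1 word left out, GATA was present at 144 members. Whether the words occur together more often than their separate shares give was not tested.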

How the data were processed

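ChIP-seq of 1 group with 2 biological replicates was analysed from peak lists in build ce11. The aligner, caller and threshold of the irreproducible discovery rate (IDR) procedure are each not given in the sources used here, and the control experiment that the labels name was not analysed here. The deposited signal is the authors' value per peak, taken here to be an enrichment, and the deposited −log10 q is the authors' significance per peak; both belong to their own list. The relaxed lists are described by the file headers as peaks and background for IDR, and the optimal list was identical, row for row, to rows of the pooled list (872 of 872). Read depth is unknown, so intervals cover the counting of peaks only.

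From these files, summits were assigned to Ensembl release 115 5' ends, each strand was searched for words within 100 bp, and classes of peaks were compared by two-sided Fisher's exact tests. Benjamini-Hochberg adjustment ran over 24 word tests and over 4 tests of signal and replicate overlap, with a threshold of 0.05. Flank windows lay 500 bp to each side and over 300 bp from any optimal summit. Windows at all promoters were centred 222 bp upstream of the 5' end, the members' median. Offsets, gene lists and their shares have no test. Sequences and gene products came from the RefSeq genome and annotation of WBcel235, and all 392 genes had a product. The work used scipy 1.17.1 and numpy 2.4.6 with Python 3.11, and the counting was tested on simulated data.

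The members, words and gene lists were chosen with earlier results of these data known. Named genes are those of the 20 strongest members, the strongest 3 of each list, those nearest the window's edges, and gcs-1, gst-4, wdr-23 and skn-1; other names, and the sequences shown, were chosen after their values were seen. Alternatives were a promoter of 500 bp upstream and 100 bp downstream, 1 5' end per gene, each replicate's 872 strongest peaks alone, words within 50 bp, the stronger peaks only, the strongest against the weakest 99 members, and other overlap rules.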

Additional observations from a re-analysis of the deposited data

How the results depend on the processing

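The number of single-gene promoter peaks ran from 364 to 405 over the 4 alternatives, and 20 to 21 gene lists lay above the share of all genes. The median offset was -184 bp with the shorter promoter. Two-sided Fisher's exact tests of the words passed for 4 words against shared-promoter peaks, and for 2 words within 50 bp, 2 among the stronger peaks only, and 2 to 2 with either replicate left out. Against peaks in no promoter 1 word passed, and 0 within 50 bp, 0 among the stronger peaks, and 0 to 0 with either replicate left out; at an unadjusted p below 0.05 these settings had 1, 2 and 1 words. With the shorter promoter and with 1 5' end per gene 1 word passed too, but it was GAGAGAGA (odds ratios 0.386 and 0.443) and not GATA (adjusted p = 0.0575 and 0.124, Fisher's exact test). For stronger against weaker members 2 passed, 1 with the strongest against the weakest 99, and 0 to 1 with a replicate left out (0 without replicate 1, where 2 passed unadjusted). The SKN-1 word was lost only without replicate 1, and the cause was not tested. Signal against shared-promoter peaks passed with the shorter promoter, at an odds ratio of 0.584. Directions turned, without passing the threshold, as follows. With 1 5' end per gene, signal against peaks in no promoter was 1.16. With all relaxed peaks, overlap was 1.38 against shared-promoter peaks and 0.465 against peaks in no promoter. For words against peaks in no promoter, odds ratios were 1.03 for the SKN-1 word and 0.949 for bZIP within 50 bp, 0.928 for bZIP with the shorter promoter, and 0.973 for CTGCGTC with 1 5' end per gene. For stronger against weaker members, the shorter promoter gave 1.06 for GATA, 0.958 for forkhead and 1.01 for the E-box, and 1 5' end per gene gave 1.12 for the E-box. GATA was 1.19 among the stronger peaks and 1.04 with the strongest against the weakest 99. Forkhead against shared-promoter peaks was 1.05 among the stronger peaks. With a replicate left out, forkhead against shared-promoter peaks ran from 0.580 to 1.08, and against peaks in no promoter the SKN-1 word from 0.815 to 1.42 and bZIP from 0.668 to 1.36. For stronger against weaker members with a replicate left out, GATA ran from 1.05 to 1.18, forkhead from 0.635 to 1.59, bZIP from 0.280 to 1.14 and GAGAGAGA from 0.923 to 1.49. No paired analysis was possible because there is only 1 group. Both replicates share 1 strain and transgene, and no tissue or second condition was measured, so the lists limit statements to position and letters.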

Other observations

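RefSeq product names gave groups outside the lists above, chosen after their values were seen and given with no test. The ubiquitin or proteasome group held 20 member genes, of 212 genes in all (9.43%), and the glutathione group 13 of 70 (18.6%). Not every product names its group: cul-1, in the first, is annotated as Cullin-1. The glutathione group also held gcs-1, annotated as glutamate-cysteine ligase, and E01A2.1, annotated as the light chain of that glutathione-synthesis enzyme. Of 13 genes whose product names an NADP-dependent oxidoreductase domain, 5 were members: C07D8.6, C07D8.5, exc-15, Y39G8B.1 and Y39G8B.2. CUB domain products numbered 8 of 74, and the cytochrome c oxidase group 4 of 24, with cox-5B in it by a COX5B domain. At the low end were serpentine or G-protein coupled receptors, with 2 of 1585 genes, and F-box proteins, with 4 of 500. Products named as uncharacterized numbered 19 of 1867 (1.02%), against 1.96% of all genes. Near that share of all genes were protein kinases, with 7 of 356 (1.97%), and the zinc finger or C3H1 group, with 5 of 256 (1.95%). Transposases numbered 2 of 65 (3.08%).

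Words of 6 or 8 bases were noticed in the windows of ribosomal genes and counted after that. TTGCGAAA was present at 7.32% of members, 1.28% of flank windows and 2.05% of all promoters. It was present at 2.75% of the members with the SKN-1 word and 9.06% of those without it. CTTGCG was present at 9.34% of members, 3.20% of flanks and 3.48% of all promoters, and at 2.75% of members with the SKN-1 word and 11.8% of those without it. CTTGCG and TTGCGAAA can share bases, as in the rpl-35 window, so their counts overlap. AAGTGTGC was present at 2.78% of members, 0.256% of flanks and 0.756% of all promoters, and at 1.83% of members with the SKN-1 word and 3.14% of those without it. TATAAA was present at 24.7% of members, 19.4% of flanks and 24.5% of all promoters, and at 33.9% of members with the SKN-1 word and 21.3% of those without it.

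In replicate 2, 5 members had no overlapping relaxed peak: a peak of lgg-2 and those of cbp-1, miz-1, moe-3 and spas-1. In replicate 1 only nhr-154 had none. These genes were named after their values were seen.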
